A study of Arabidopsis thaliana with 9 samples.

Results

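The genes described here encode LHCB3 and the minor antenna proteins LHCB4 to LHCB7 of photosystem II in Arabidopsis thaliana. They were chosen by locus, with earlier results of these data known, and are 7 of the 37328 genes in the authors' deposited table. RNA sequencing of whole seedlings covered 3 genotypes with 3 replicates each. These were wild-type Col-0, the glk1/glk2 double mutant in Col-0 (glk12) and Col-0 with RPGE2 overexpression (RPGE2-OX), all kept for 7 days at 22 °C under constant white light (50 µmol per m2 and s) after 3 days of cold at 4 °C. For the mutant alleles, the promoter of the RPGE2 transgene and the number of lines, the sources used here say nothing. The table holds a log2 ratio over the wild type and a q value for each line, with no levels and no values per replicate. Depth is therefore unknown, no SD can be given, and the order of the 7 genes in transcript abundance was not analysed here.

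Light-harvesting proteins bind chlorophylls and carotenoids and pass excitation energy to the photosystems. In photosystem II of land plants, trimers of the major antenna surround the core, and monomeric minor antenna proteins sit between trimers and core. LHCB3 is the trimer subunit found with LHCB1 in the moderately bound trimer. LHCB4 (CP29), LHCB5 (CP26) and LHCB6 (CP24) are the monomers, and CP24 and CP29 together hold the moderately bound trimer in place. GLK1 and GLK2 are transcription factors known to activate nuclear photosynthesis genes, and RPGE proteins are known as repressors of GLK function, which is the ground for setting both lines beside each other.

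As a check on the labels, GLK1 and GLK2 had log2 ratios of -2.64 and -1.41 in glk12 in the authors' deposited table, both at q = 0.0019. For RPGE2-OX the deposited table listed GLK1 at 0.45 (q = 0.013) and GLK2 at 0.40 (q = 0.038). No locus carries the symbol RPGE2 in the table. The RPGE family locus AT3G55240 was 27.7-fold higher in RPGE2-OX (q = 0.0018) and 88.2-fold lower in glk12 (log2 ratio -6.46, q = 0.0019) in the deposited table. All 8 mesophyll markers outside the antenna, 9 of 10 root markers and all 6 guard cell markers were tested in both lines. Transcripts of these markers were thus measured in the seedlings, but bulk RNA does not tell which cells they came from.

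In both lines LHCB3, LHCB4.1, LHCB4.2, LHCB4.3, LHCB5 and LHCB6 fell and LHCB7 did not pass the threshold. A gene was called where the authors' q lay below 0.05. In glk12, 6 of 7 genes fell, where 5.67% of 21843 tested genes were called in either direction and 3.01% were called lower with a finite ratio. In RPGE2-OX, 6 of 7 fell, where 6.55% of 21680 tested genes were called and 3.92% were called lower. At q below 0.01 the counts were again 6 and 6 (1.79% and 2.33% of tested genes called lower), and with a fold of at least 2 beside q below 0.05 they were 5 and 5 (1.31% and 1.14%). The median log2 ratio of the 7 genes was -1.55 in glk12 and -1.57 in RPGE2-OX, while the median of all tested genes was 0.02 and 0.01. Nothing is read from the likeness of the medians, because both comparisons use the same wild-type samples.

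The interval given with each ratio was derived from the authors' q value. The ratio was divided by the normal quantile of the p behind that q, which gives an implied SE. Most of the genes sat at the lowest p that occurs, 5e-05, and there the SE and the 95% interval are upper bounds on the true width.

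**Figure D1:**
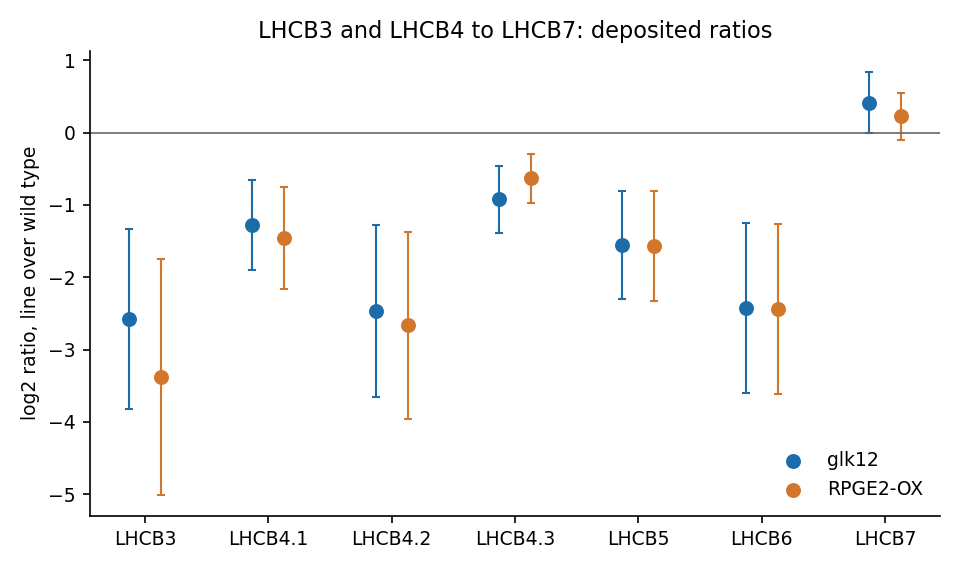
Log2 ratio over the wild type (vertical axis) of each gene in glk12 (blue) and RPGE2-OX (orange). Points are the authors' deposited ratios and bars the 95% intervals implied by their q values. The ratios run from -3.37 for LHCB3 in RPGE2-OX to 0.42 for LHCB7 in glk12. The bars of LHCB7 alone cross 0, which restates the p behind q, since bars leave out 0 wherever that p is below 0.05.

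LHCB3 (AT5G54270, chromosome 5, 22038165 to 22039568 on the plus strand, TAIR10.1) had the lowest ratio of the 7 genes in each line. The gene has 3 exons and a coding length of 798 bases. The authors' deposited table put it 5.95-fold below the wild type in glk12 (log2 ratio -2.57, q = 0.0019). This leaves 16.8% of the wild-type transcript level, with an interval of 7.09% to 39.8%. For RPGE2-OX the deposited table gave a 10.4-fold fall, at -3.37 and q = 0.0018. There 9.65% of the wild-type level remained (interval 3.12% to 29.9%). Of the tested genes with a finite ratio, 69 of 21709 had a lower ratio than LHCB3 in glk12 and 35 of 21576 did in RPGE2-OX. Many of those were not called: among genes called lower, 18 of 657 and 9 of 850 lay below LHCB3.

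The 3 LHCB4 genes encode forms of CP29. LHCB4.1 (AT5G01530, chromosome 5, 208866 to 210548, plus strand) and LHCB4.2 (AT3G08940, chromosome 3, 2717557 to 2718923, plus strand) are the closest pair among the 7 genes. Their coding sequences were identical at 81.9% of aligned bases. LHCB4.3 (AT2G40100, chromosome 2, 16745628 to 16747424, plus strand) matched them at 70.1% and 72.8%, and its coding length of 831 bases was below the 873 and 864 bases of LHCB4.1 and LHCB4.2. The longest run of identical bases shared by the transcripts of LHCB4.1 and LHCB4.2 was 23, and no other pair shared a longer run.

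LHCB4.2 fell furthest of the 3 LHCB4 genes by its point value. In glk12 the authors' deposited table put it 5.51-fold below the wild type (log2 ratio -2.46, q = 0.0019), at 18.1% of the wild type (interval 7.95% to 41.4%). In RPGE2-OX the deposited ratio was -2.67 at q = 0.0018, a 6.34-fold fall to 15.8% (interval 6.46% to 38.5%). LHCB4.1 was 2.42-fold lower in glk12 in the deposited table, at -1.28 and q = 0.0019, which is 41.3% of the wild type (interval 26.9% to 63.3%). For LHCB4.1 in RPGE2-OX, the deposited fall was 2.74-fold, at -1.45 and q = 0.0018, or 36.5% of the wild type (interval 22.4% to 59.4%).

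LHCB4.3 had the smallest fall among the 6 genes that fell. Its deposited ratio was -0.92 in glk12 (q = 0.0035), a 1.90-fold fall to 52.7% of the wild type (interval 38.2% to 72.8%). In RPGE2-OX the deposited ratio was -0.63 at q = 0.0082, a 1.55-fold fall to 64.4% (interval 50.8% to 81.8%). It did not sit at the lowest p, so its implied SE of 0.24 in glk12 and 0.18 in RPGE2-OX is an estimate and not only an upper bound.

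Within the LHCB4 group, LHCB4.2 lay below LHCB4.3 by more than their errors in each line. The difference LHCB4.2 minus LHCB4.3 was -1.54 on the log2 scale in glk12 (interval -2.82 to -0.26) and -2.03 in RPGE2-OX (interval -3.36 to -0.70). LHCB4.1 lay below LHCB4.3 in RPGE2-OX by a difference of -0.82 (interval -1.60 to -0.04), whereas in glk12 the interval of -0.35 included 0 (-1.12 to 0.42). The difference LHCB4.1 minus LHCB4.2 was 1.19 in glk12 (interval -0.15 to 2.53) and 1.21 in RPGE2-OX (interval -0.26 to 2.68), so that pair could not be separated with these error bounds.

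LHCB5 (AT4G10340, chromosome 4, 6408007 to 6409849, plus strand, 6 exons) encodes CP26. It was 2.93-fold lower in glk12 in the authors' deposited table (log2 ratio -1.55, q = 0.0019), at 34.2% of the wild type (interval 20.3% to 57.4%). In RPGE2-OX the deposited ratio was -1.57 at q = 0.0018, a 2.97-fold fall to 33.6% (interval 19.9% to 56.9%).

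LHCB6 (AT1G15820, chromosome 1, 5446462 to 5447880 on the minus strand, 2 exons) encodes CP24. It was 5.39-fold lower in glk12 in the deposited table, at -2.43 and q = 0.0019, which is 18.6% of the wild type (interval 8.23% to 41.9%). For RPGE2-OX the deposited fall was 5.42-fold, at -2.44 and q = 0.0018, or 18.5% of the wild type (interval 8.16% to 41.8%).

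LHCB7 (AT1G76570, chromosome 1, 28728998 to 28730851, plus strand, 6 exons) is listed by the authors as a chlorophyll A-B binding family protein without the symbol. Its deposited ratio was 0.42 in glk12 at q = 0.33, or 133% of the wild type (interval 99.5% to 179%). In RPGE2-OX the deposited ratio was 0.23 at q = 0.57, or 117% (interval 93.4% to 147%). These intervals leave out falls as large as that of LHCB4.3. The difference LHCB4.3 minus LHCB7 was -1.34 in glk12 (interval -1.97 to -0.71) and -0.86 in RPGE2-OX (interval -1.34 to -0.39). Among tested genes, 87.8% in glk12 and 79.5% in RPGE2-OX had a lower ratio than LHCB7.

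**Figure D2:**
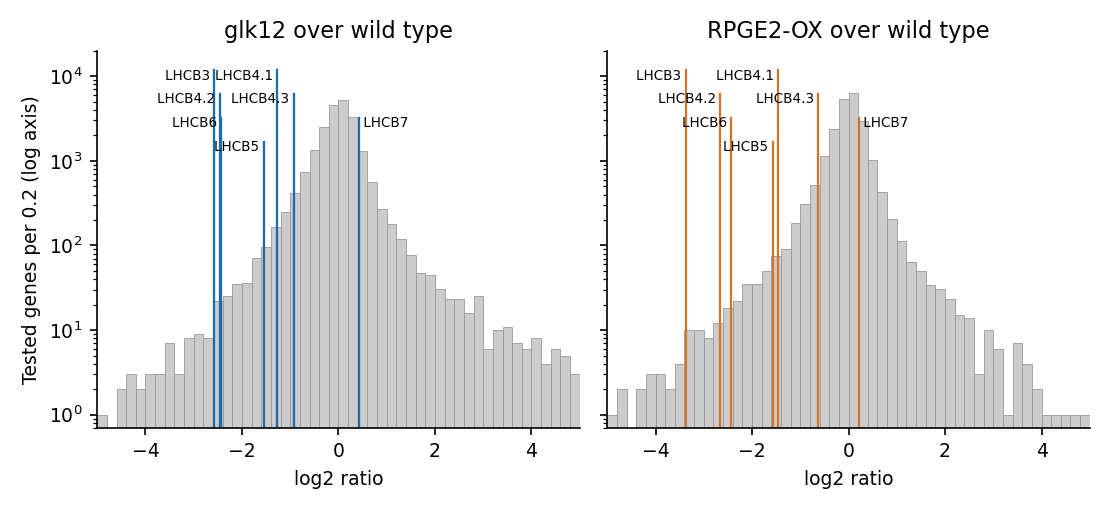
Number of tested genes per 0.2 of log2 ratio (vertical axis, log scale) in glk12 and RPGE2-OX, with coloured lines at the 7 genes. LHCB3, LHCB4.2 and LHCB6 lie in the far left tail and LHCB7 right of 0; 66 and 40 tested genes lie beyond the axis limit of 5.

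From the lowest ratio upward, the order in glk12 was LHCB3, LHCB4.2, LHCB6, LHCB5, LHCB4.1, LHCB4.3 and LHCB7, and the order in RPGE2-OX was the same. Nothing is read from the likeness of the orders, since both lines are set against the same wild-type samples. Few steps in that order exceeded the errors. Of 6 neighbouring pairs in glk12, the interval of the difference left out 0 for 1, LHCB4.3 and LHCB7. In RPGE2-OX it did so for 2 of 6, LHCB4.1 with LHCB4.3 and LHCB4.3 with LHCB7. Over all 21 pairs, 9 intervals in glk12 and 13 in RPGE2-OX left out 0. In glk12 each of these pairs held LHCB4.3 or LHCB7. So did those in RPGE2-OX except LHCB3 against LHCB4.1, at a difference of -1.92 (interval -3.70 to -0.14), and LHCB3 against LHCB5, at -1.80 (interval -3.60 to -0.003). For the same pairs in glk12 the intervals included 0 (-2.69 to 0.09 and -2.48 to 0.43). These pair intervals treat the 2 genes of a pair as independent and carry no adjustment for the number of pairs.

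The authors deposited no comparison of RPGE2-OX with glk12. The difference between the 2 ratios of a gene was therefore tested over 21380 genes, with the implied errors, a two-sided normal p and adjustment by Benjamini-Hochberg. Of all genes tested 0.15% differed between the lines, and 0 of the 7 antenna genes did, with 0 of them at an unadjusted p below 0.05. As deposited, LHCB3 had the largest difference among them, RPGE2-OX minus glk12, at -0.80 (interval -2.85 to 1.25), whereas relative to the reference genes LHCB4.3 had the largest. For LHCB4.3, the only gene of the 7 with the higher ratio in RPGE2-OX, the difference was 0.29 (interval -0.29 to 0.87). The differences of LHCB5 and LHCB6 were -0.02 (interval -1.09 to 1.04) and -0.01 (interval -1.67 to 1.66). The intervals are wide because 5 of the genes sat at the lowest p in both lines, so a miss here does not show that the lines act alike.

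**Figure D3:**
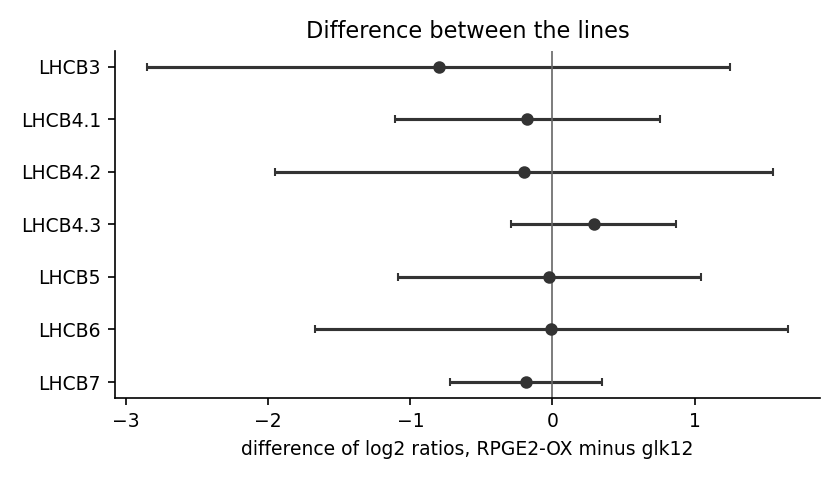
RPGE2-OX minus glk12 for each gene, as a difference of log2 ratios (horizontal axis), with 95% intervals from the implied errors. All 7 intervals include 0, from the widest for LHCB3 (-2.85 to 1.25) to the narrowest for LHCB7 (-0.72 to 0.35).

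The scale of the comparison bears on these differences. The median ratio of 10 reference genes was 0.24 in glk12 and -0.05 in RPGE2-OX in the deposited table. Relative to the reference genes, the differences of LHCB4.1, LHCB4.2, LHCB5, LHCB6 and LHCB7 turned from below 0 to above 0, that of LHCB3 became -0.50 and that of LHCB4.3 became 0.59. The falls against the wild type kept their direction on that scale for all 6 genes in both lines, with LHCB4.3 at -1.17 in glk12 and -0.58 in RPGE2-OX, and LHCB7 stayed above 0, at 0.17 and 0.28.

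Genes that act on the same antenna were read from lists of the pathway. All 8 major antenna genes LHCB1 and LHCB2, which encode the other trimer subunits, fell in each line, with medians of -2.17 in glk12 and -2.71 in RPGE2-OX. LHCB1.4 had the lowest deposited ratio of them in each line, at -8.55 in glk12 and -6.58 in RPGE2-OX. The next lowest deposited ratios were -2.86 for LHCB2.3 in glk12 and -3.98 for LHCB2.2 in RPGE2-OX. Sequence shared among the major antenna genes, or by them with LHCB3, was not analysed here. Of 6 photosystem I antenna genes 5 fell in each line (medians -1.60 and -1.80), and LHCA5, at -0.14 and -0.18 in the deposited table, did not pass. Of 13 nuclear photosystem II subunit genes 10 fell in glk12 (median -0.85) and 12 in RPGE2-OX (median -0.98). PSBQ2, a subunit of the oxygen-evolving complex, had deposited ratios of -2.22 in both lines, and PSB28, an assembly factor, had -0.21 (q = 0.67) in glk12 and -0.07 (q = 0.91) in RPGE2-OX. Whether LHCB3 and the minor antenna genes differ from these lists as a group was not tested.

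The genes for making and handling antenna proteins moved in a minority. CAO, the oxygenase that makes the chlorophyll b bound by these proteins, had deposited ratios of -1.52 (q = 0.0019) in glk12 and -1.97 in RPGE2-OX (q = 0.0018). It was the gene that fell among 5 genes for chlorophyll b and late chlorophyll metabolism in each line. The chlorophyll b reductase genes NYC1 and NOL had deposited ratios of 0.18 and 0.15 in glk12 and 0.07 in each case in RPGE2-OX, none called. Among 5 genes that target antenna proteins to the thylakoid, CPSRP43, the chloroplast signal recognition particle subunit that binds antenna proteins, fell in each line, at -0.58 (q = 0.035) in glk12 and -0.89 (q = 0.0018) in RPGE2-OX in the authors' table. Its partner gene CPSRP54 had deposited ratios of -0.41 (q = 0.19) and -0.02 (q = 0.98), and the insertase gene ALB3 had -0.17 (q = 0.80) and -0.15 (q = 0.68).

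None of the 9 genes for antenna regulation and none of the 3 lutein synthesis genes passed the authors' q in either line. At a recovered unadjusted p below 0.05 there were 2 regulation genes in RPGE2-OX, PSBS and SOQ1, and 1 lutein gene in glk12, LUT2, and 0 otherwise, where 15.6% of all tested genes in glk12 and 16.4% in RPGE2-OX lay below that p. PSBS, which senses lumen acidity in thermal dissipation, had deposited ratios of -0.35 (q = 0.39) in glk12 and -0.42 in RPGE2-OX (q = 0.053). The state transition kinase gene STN7 had -0.18 (q = 0.74) and -0.21 (q = 0.44) in the deposited table. LUT2, the cyclase of the lutein branch, had -0.61 (q = 0.25) in glk12 and -0.29 (q = 0.53) in RPGE2-OX. The medians of the regulation list were -0.08 in glk12 and -0.11 in RPGE2-OX.

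**Figure D4:**
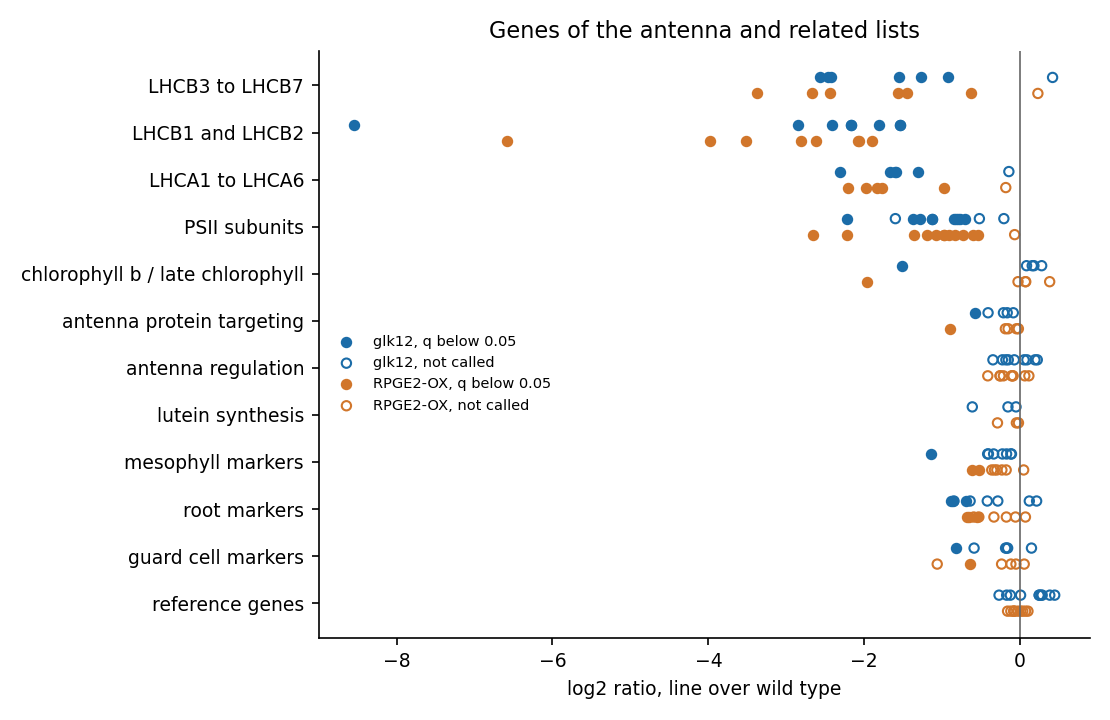
Log2 ratio over the wild type (horizontal axis) of every tested gene of the pathway and marker lists in glk12 (blue) and RPGE2-OX (orange), as deposited; filled points have q below 0.05. Most points of the antenna and photosystem II lists lie left of the regulation, lutein and reference lists, and LHCB7 is the open point right of 0 in the top row.

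Cell type markers stood beside these falls as follows. In bulk seedlings, fewer cells of a type and less RNA per cell cannot be told apart. Of 8 mesophyll markers outside the antenna 1 fell in glk12, CA1, a carbonic anhydrase gene, at -1.14 in the deposited table (q = 0.0019), and 2 fell in RPGE2-OX, CA1 at -0.62 (q = 0.022) and the Rubisco activase gene RCA at -0.52 (q = 0.018). The mesophyll markers ran from -1.14 to -0.11 in glk12 and from -0.62 to 0.05 in RPGE2-OX, with medians of -0.28 and -0.31. RBCS1A, a Rubisco small subunit gene, had deposited ratios of -0.11 (q = 0.95) and -0.18 (q = 0.79). Of 9 tested root markers 3 fell in each line (medians -0.64 and -0.53), and of 6 guard cell markers KAT1 fell in each (medians -0.18 in both lines). The part of these shifts in the antenna ratios was not tested.

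Neighbouring genes could share reads with 3 of the 7 genes. The libraries were stranded, per the labels' protocols, but the sources used here do not say whether counting used the strand, and reads of overlapping genes are uncertain to that extent. LHCB3 overlaps AT5G54280 on the opposite strand by 186 bases, and that gene had deposited ratios of 0.13 in glk12 and 0.10 in RPGE2-OX. LHCB4.2 overlaps AT3G08943 on the opposite strand by 44 bases, with deposited ratios of 0.33 and 0.08 for that gene. LHCB6 overlaps AT1G15810 by 103 bases (deposited ratios 0.32 and 0.32) and the long non-coding RNA gene AT1G05207 by 358 bases, both on the opposite strand. AT1G05207 had deposited ratios of -2.11 in glk12 and -2.39 in RPGE2-OX, near those of LHCB6, but with q = 0.74 and 0.80. Of these 4 neighbours none passed the threshold in either line.

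As a description only, the stretches before the starts of all the genes were read for short motifs known from GLK-bound and light-regulated promoters. Shown are the windows of the LHCB4 genes, of which LHCB4.2 and LHCB4.3 differed beyond their errors in both lines, and of LHCB3 and LHCB6, from TAIR10.1 (RefSeq annotation), each ending at the base before the annotated gene start. The window is 250 bases, shortened where it ran into a neighbouring gene. Capitals mark a searched motif on either strand. The motifs were CCAATC and AGATTC, both associated with GLK binding, GATAAG, known as the I-box, and CACGTG, known as the G-box and its own reverse complement. None of the printed matches overlaps another.
LHCB4.1, chr5:208616-208865, plus strand: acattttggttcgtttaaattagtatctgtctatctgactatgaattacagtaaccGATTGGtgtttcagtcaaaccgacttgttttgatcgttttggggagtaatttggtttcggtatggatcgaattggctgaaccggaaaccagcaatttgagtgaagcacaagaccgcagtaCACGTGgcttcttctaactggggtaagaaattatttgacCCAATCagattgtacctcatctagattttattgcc
LHCB4.2, chr3:2717367-2717556, plus strand: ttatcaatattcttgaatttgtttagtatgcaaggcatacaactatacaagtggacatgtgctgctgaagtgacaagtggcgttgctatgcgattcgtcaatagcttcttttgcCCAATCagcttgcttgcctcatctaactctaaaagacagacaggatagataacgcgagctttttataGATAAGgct
LHCB4.3, chr2:16745378-16745627, plus strand: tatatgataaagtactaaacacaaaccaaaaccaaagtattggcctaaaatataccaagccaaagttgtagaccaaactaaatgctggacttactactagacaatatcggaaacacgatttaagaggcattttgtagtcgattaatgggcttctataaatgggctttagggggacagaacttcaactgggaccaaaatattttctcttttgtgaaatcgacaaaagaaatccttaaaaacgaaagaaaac
LHCB3, chr5:22038053-22038164, plus strand: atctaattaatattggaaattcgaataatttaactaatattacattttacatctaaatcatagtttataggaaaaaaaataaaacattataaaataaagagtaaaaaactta
LHCB6, chr1:5447881-5448059, minus strand: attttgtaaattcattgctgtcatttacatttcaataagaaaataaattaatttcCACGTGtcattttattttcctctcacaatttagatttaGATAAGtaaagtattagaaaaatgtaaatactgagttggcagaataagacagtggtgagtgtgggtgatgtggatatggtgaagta

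Matches were counted in the full window of 250 bases of each gene. CCAATC occurred before LHCB4.1, once on each strand, and once before LHCB4.2, so 2 of 7 genes held it, against 10.2% of 27443 windows of the same length before protein-coding genes. AGATTC occurred before 1 gene, LHCB5, inside the neighbouring gene AT4G10330 (16.4% of all windows). GATAAG occurred before 2 genes, LHCB4.2 and LHCB6 (12.3% of all windows). CACGTG occurred before 3 genes, LHCB4.1, LHCB6 and LHCB7 (6.49% of all windows). Among the 14 other antenna genes (LHCB1, LHCB2 and LHCA), 8 held CCAATC, 4 held AGATTC, 2 held GATAAG and 2 held CACGTG. LHCB3 and LHCB4.3 held none of these letters in the window. Whether the motifs bear on the ratios was not tested. A match is a description of the sequence, and with 7 genes no share was tested.

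**Figure D5:**
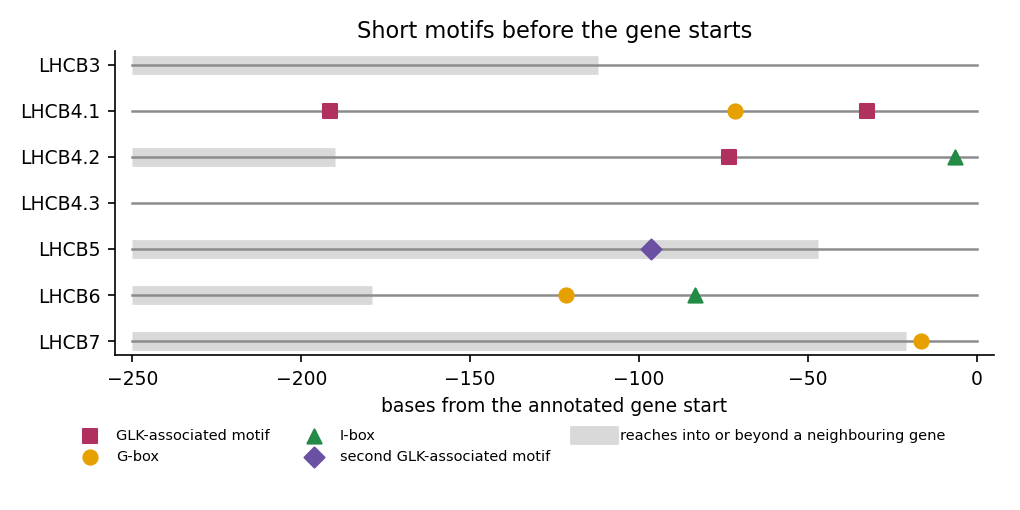
Positions of the 4 short motifs in the 250 bases before each annotated gene start (horizontal axis, bases from the start); grey bands begin where a neighbouring gene is reached. LHCB4.1 carries the first GLK-associated motif 2 times, LHCB4.2 carries it 1 time, and LHCB3 and LHCB4.3 carry no symbol.

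The genes nearest in both ratios were listed to show what else moved by like amounts, by straight distance between the pairs of log2 ratios among 21373 other genes tested in both lines. A distance over 2 comparisons that share the wild type is a coarse measure, and genes with wide errors come near by it as readily as others. Of the 5 genes nearest to LHCB3, LHCB2.3 of the major antenna (deposited ratios -2.86 and -3.52, distance 0.32) and the lectin gene AT5G03350 (-2.66 and -2.96, distance 0.42) were called in both lines. The nearest, AT2G32550 at distance 0.10, was called in glk12 (q = 0.013) but not in RPGE2-OX (q = 0.41), and MES18 and AT1G09103 were called in neither. Of the 5 nearest to the median of the 7 genes, the photosystem I subunit gene PSAG (deposited ratios -1.56 and -1.64, distance 0.07), the allantoinase gene ALN (-1.59 and -1.64, distance 0.08) and AT5G59080 (-1.46 and -1.55, distance 0.09) were called in both lines. EXPA17 and LSU4 were called in RPGE2-OX (q = 0.044 and 0.030) and not in glk12 (q = 0.083 and 0.078).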

How the data were processed

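Total RNA of whole seedlings, 1 µg per sample, went into stranded libraries sequenced on an Illumina NextSeq500, per the labels' protocols. Per the submitters' processing notes, the build was TAIR10 and the tools were CASAVA 1.8.2, TopHat, Cufflinks and Cuffdiff, whose roles are not stated. The deposited file holds the authors' log2 ratios of each line over Col-0 and their q values (p-value type), per the file headers. The sources used here do not state the scale of the group values, filters or the handling of replicates. The labels do not say whether replicates were separate cultures, so q values may measure technical spread.

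Rows with a q of 1 or a ratio stored as spreadsheet text (infinite) were left out of ratios. Calls used q below 0.05, two-sided. The p behind q was recovered by inverting the Benjamini-Hochberg adjustment over 21844 tests (glk12) and 21680 tests (RPGE2-OX). These numbers were set to put the most p values on whole steps of 5e-05 (99.9% and 99.8% within 0.02 of a step at q below 0.5). Where several p share a q, the recovered value is the largest of them. The difference between the lines used the summed variances. The functions were run on simulated data with independent errors for the lines, whereas the real ratios share the wild type. No support is drawn from that run. The members, lists, motifs and tests were chosen with earlier results of these data known. All 7 members and the genes of the lists were open to naming, and for likeness the 5 nearest genes. The overlapping genes were named for their position. Gene models and sequence came from TAIR10.1, whose gene starts may differ from those the authors used. Protein sequences were not used here. Python 3.11.15, numpy 2.4.6, pandas 2.3.3, scipy 1.17.1 and Biopython 1.88 were used.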

Additional observations from a re-analysis of the deposited data

How the results depend on the processing

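A stricter threshold of q below 0.01 left the counts of genes that fell at 6 of 7 in each line, and a fold of at least 2 in addition to q below 0.05 gave 5 in each, without LHCB4.3. Centring on all tested genes or on the reference genes changed the direction of no ratio over the wild type among the 7 genes. Centred on the reference genes, the difference RPGE2-OX minus glk12 became 0.12 for LHCB4.1, 0.095 for LHCB4.2, 0.27 for LHCB5, 0.29 for LHCB6 and 0.11 for LHCB7, each below 0 as deposited, while LHCB4.3 went from 0.29 to 0.59; the reference medians differ by line, and the cause was not tested. Halving the summed variance for the shared wild type left 0 of the 7 genes past the threshold between the lines, with an adjusted p of 0.77 for LHCB4.3 and 0.88 for LHCB3. With all rows counted as tested, the share of genes called was 3.32% in glk12 and 3.8% in RPGE2-OX. Centring on the reference genes shifted each glk12 list median by -0.24, to -0.090 (from 0.15) for the chlorophyll b list. The other glk12 medians became -0.46 for targeting, -0.32 for regulation, -0.40 for lutein, -0.53 for mesophyll, -0.89 for root and -0.42 for guard cell genes. The same centring shifted each RPGE2-OX median by 0.05, which took the lutein median from -0.05 to 0.0044. It took chlorophyll b to 0.12, targeting to -0.10, regulation to -0.06, mesophyll to -0.26, root to -0.48 and guard cell genes to -0.13 in RPGE2-OX. No paired analysis was possible because the table holds no values per replicate, and leaving out replicates was not run for the same reason. The unknown depth and the lowest p of 5e-05 limit the precision for 5 of the 7 genes.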
